A study of Mus musculus with 16 samples.

Results

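Interferon response genes and the genes of MHC class I antigen presentation were examined as 1 set in kidneys of mouse pups with and without aquaporin-11. The set was a named list of 33 genes, from the transcription factors that act downstream of interferon to the antiviral effectors, the immunoproteasome, the peptide loading machinery and the class I molecules. Of these, 31 had a probe set that named them alone, among 18193 genes named on the array. 29 were bright enough to be tested, among 12508 genes. Isg15 and Ifi44 had no probe set that named them alone and were not analysed here, and Mx1 and Mx2 lay below the filter on low signal.

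The animals were 16 pups aged 7 days, 7 wild type (Aqp11+/+, 3 males and 4 females) and 9 knockout (Aqp11-/-, 5 males and 4 females). They were bred from heterozygous parents whose allele was made in 129/SvEvBrd and back-crossed to C57/BL6, and the strain label of both groups is C57BL/6J. The deletion is germline, so every kidney cell of a knockout pup carries it. RNA from each animal's kidney was hybridised to its own Affymetrix GeneChip mouse array, and the comparison asks how loss of this endoplasmic reticulum aquaporin alters kidney transcripts. Levels are given below as log2 of the quantile-normalised signal, which cannot fall under a floor of 2.78. A gene is called where the limma p-value, adjusted by Benjamini-Hochberg over all 12508 genes, is under 0.05.

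Interferons bind receptors that signal through Janus kinases to STAT proteins. Type I interferon acts largely through the interferon-stimulated response element (ISRE) in promoters, which is read by a complex that includes STAT2 and IRF9, and interferon gamma through the gamma-activated site (GAS). The induced genes encode antiviral proteins and the parts of the class I pathway, in which peptides cut by the proteasome are carried into the endoplasmic reticulum by TAP and loaded on class I heavy chains paired with beta-2 microglobulin. In kidney, macrophages, endothelium and tubule cells can all express such genes.

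Aqp11 was 7.87 ± 0.16 (SD, n = 7) in wild type against 2.95 ± 0.33 (SD, n = 9) in knockout, where 7 arrays were at the floor, so it was at least 30.3-fold lower. All 8 kidney tubule markers were bright enough to be tested, with list means per array from 11.2 to 11.7. The 2% trimmed mean of the deposited signal ran from 111 to 211 in wild type, against from 124 to 236 in knockout (exact permutation p = 0.85, two-sided). The 3' to 5' log2 difference of Gapdh ran from -0.44 to -0.18 in wild type, against from -0.50 to -0.14 in knockout (exact permutation p = 0.75, two-sided). Precision here is set by how many animals there were.

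The set was shifted upward in the knockout kidney. 15 of the 29 tested members rose and 0 fell, with 14 not called. Over all tested genes, 9.36% rose and 8.34% fell. 27 of the 29 changes were positive, and their median was 0.38 against 0.0031 over all tested genes. The called rises were modest, from 0.28 for B2m to 0.94 for Oasl2 on the log2 scale. All 3 immunoproteasome subunits and all 3 class I genes rose, as did 2 of 3 peptide loading genes, 2 of 5 transcription factors, 1 of 2 guanylate-binding proteins and 4 of 10 tested antiviral effectors. Neither RNA sensor was called, nor was the ISG15 protease. In 4 members (H2-K1, Psmb10, Irf8 and Oas1a) every knockout array was above every wild-type array, a pattern seen in 2.91% of all tested genes.

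On the deposited signals without scaling, 3 members were called, and 2.28% of all tested genes rose. Taken alone, the 8 brighter arrays gave 11 members that rose (5.22% of all tested genes rose) and the 8 dimmer arrays gave 6 (5.62%). The dimmer arrays were 2-4, 3-4 and all from 4-1 to 5-2, so brightness largely followed the first number of the sample label. In males alone 9 members rose (6.54%) and in females alone 8 (2.89%).

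**Figure D1:**
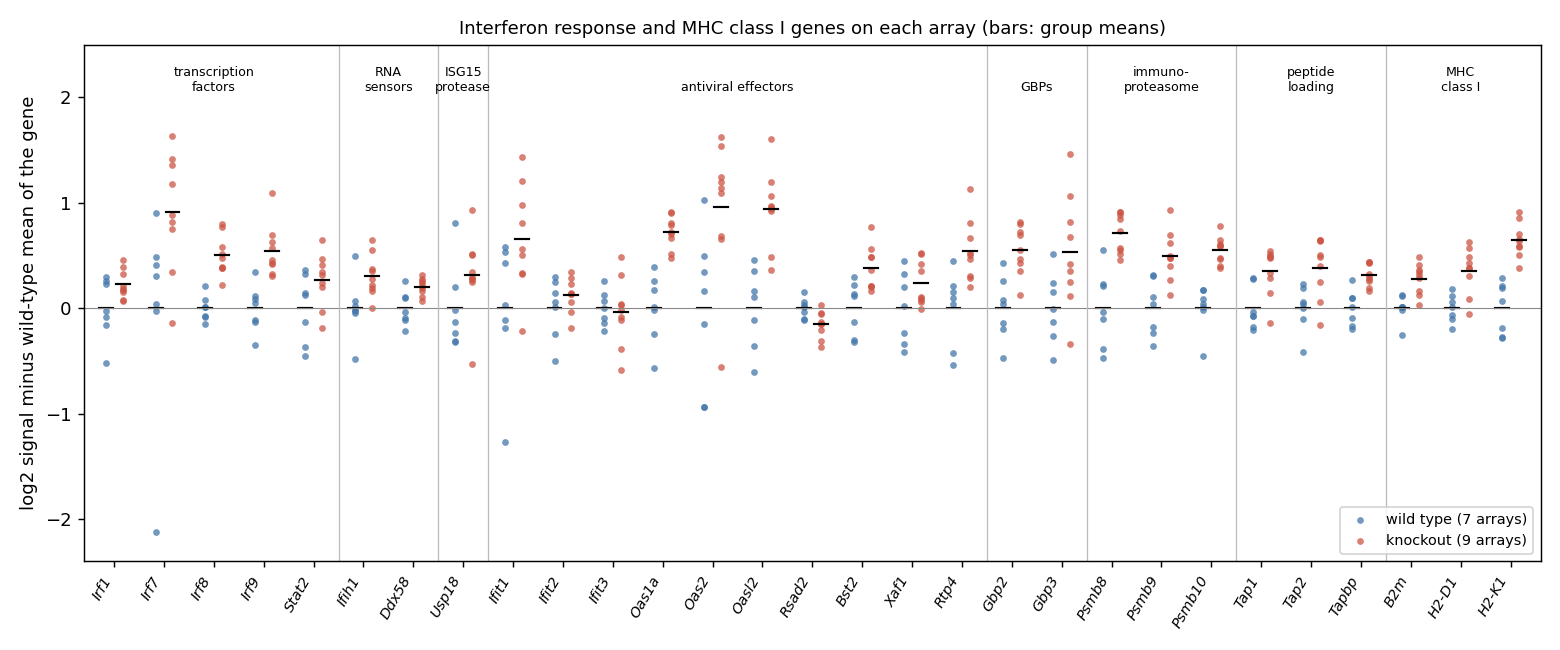
Log2 signal of each tested member on each array, with the wild-type mean of the gene subtracted (vertical axis, log2 units), for 7 wild-type arrays in blue and 9 knockout arrays in red, with members ordered by role and black bars at group means. The 2 colours do not overlap for Irf8, Oas1a, Psmb10 and H2-K1, while Ifit3 and Rsad2 have knockout means at or below the wild-type mean.

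**Figure D2:**
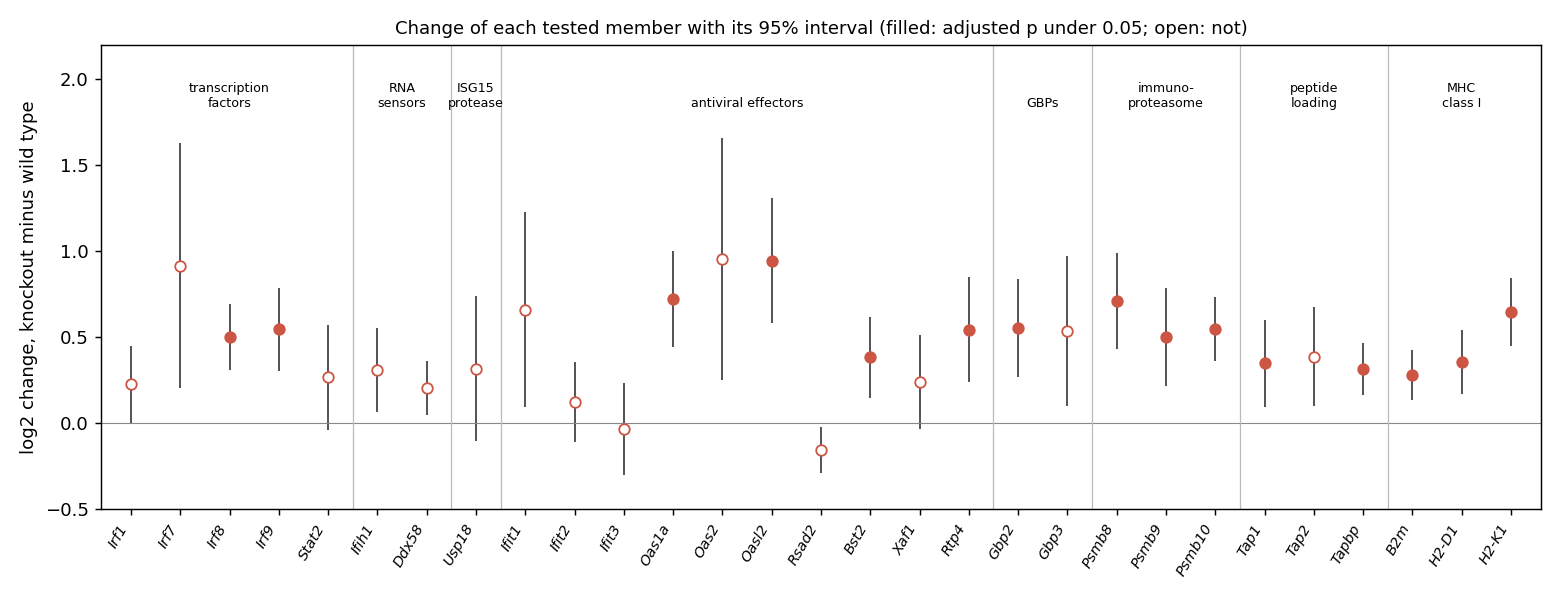
Log2 change of each tested member, knockout minus wild type (vertical axis), with its 95% interval from the limma fit, ordered by role. Filled points mark the 15 members with an adjusted p under 0.05 and open points the 14 others, of which Oas2 (0.96) and Irf7 (0.92) have among the largest changes and the widest intervals.

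Among the transcription factors, Irf8 and Irf9 rose. Irf8, a factor of macrophage and dendritic cell development, ran from 6.92 through a median of 7.08 to 7.28 in wild type and from 7.29 through 7.55 to 7.87 in knockout. The groups did not overlap, although the highest wild-type array (5-1) and the lowest knockout array (2-4) were nearly level. The rise was 0.50 (SE 0.088, 1.42-fold, limma adjusted p = 0.00034). A second, dimmer Irf8 probe set changed by 0.28 with overlapping groups and was not called (limma adjusted p = 0.18 over all tested probe sets).

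Irf9, the DNA-binding part of the complex that reads the ISRE, ran from 6.69 through 7.09 to 7.39 in wild type and from 7.35 through 7.50 to 8.13 in knockout. 7 of the 9 knockout arrays were above every wild-type array, and knockout 1-2 stood highest. Its rise was 0.55 (SE 0.11, 1.46-fold, limma adjusted p = 0.0016). Stat2, its partner in that complex, was 5.95 ± 0.33 (SD, n = 7) and 6.21 ± 0.25 (SD, n = 9), a change of 0.27 that was not called (limma adjusted p = 0.23).

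Irf7, the factor that amplifies type I interferon production, ran from 2.92 through 5.34 to 5.95 in wild type and from 4.90 through 5.92 to 6.68 in knockout. A single wild-type array, 3-1, lay far below the rest, and 4 of 9 knockout arrays were above every wild-type array. The change of 0.92 (SE 0.34) was not called (limma adjusted p = 0.069), and the log2 change of Irf7 was 0.56 without that array. Irf1, a factor induced by interferon gamma that drives class I and immunoproteasome genes, was 7.54 ± 0.29 (SD, n = 7) and 7.77 ± 0.14 (SD, n = 9), a change of 0.23 that was not called (limma adjusted p = 0.16).

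The cytoplasmic RNA sensors Ifih1 (MDA5) and Ddx58 (RIG-I) were not called. Ifih1 was 7.46 ± 0.29 (SD, n = 7) in wild type against 7.77 ± 0.20 (SD, n = 9) in knockout, a change of 0.31 (limma adjusted p = 0.069). Ddx58 was 7.61 ± 0.16 (SD, n = 7) and 7.81 ± 0.080 (SD, n = 9), a change of 0.20 (limma adjusted p = 0.060). All 9 knockout arrays were above the wild-type mean for both sensors, and both distributions overlapped. Usp18, the protease that removes ISG15 from proteins and dampens type I receptor signalling, was 4.97 ± 0.40 (SD, n = 7) and 5.29 ± 0.38 (SD, n = 9), a change of 0.32 (limma adjusted p = 0.32).

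The antiviral effectors were divided, with 4 of 10 called and changes from -0.15 to 0.96. The 2'-5' oligoadenylate synthetases make the activator of RNase L. Oas1a ran from 4.98 through 5.55 to 5.94 in wild type and from 6.03 through 6.27 to 6.46 in knockout. The groups did not overlap, and the knockout arrays lay closer together than the wild-type arrays. The rise was 0.72 (SE 0.13, 1.65-fold, limma adjusted p = 0.00046).

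Oasl2, a synthetase-like protein, ran from 5.31 through 6.02 to 6.37 in wild type and from 6.27 through 6.87 to 7.51 in knockout. 8 of 9 knockout arrays were above every wild-type array, the exception being 2-4. The rise of 0.94 (SE 0.17, 1.92-fold, limma adjusted p = 0.00046) was the largest called among the members. Oas2 was dim, from the floor (2 of 7 arrays) to 4.75 in wild type, and its knockout arrays ran from 3.16 to 5.35. Its change of 0.96 (SE 0.33) was not called (limma adjusted p = 0.054), and without knockout 2-4 the log2 change of Oas2 was 1.15 (limma adjusted p = 0.0098).

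Rtp4, a chaperone-like protein induced by interferon, was 7.49 ± 0.35 (SD, n = 7) and 8.04 ± 0.29 (SD, n = 9). It rose by 0.54 (limma adjusted p = 0.011), with 6 of 9 knockout arrays above every wild-type array. Bst2 (tetherin), which holds budding virions at the cell surface, was 7.13 ± 0.25 (SD, n = 7) and 7.51 ± 0.21 (SD, n = 9). It rose by 0.38 (limma adjusted p = 0.019), with 5 of 9 knockout arrays above every wild-type array.

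The Ifit genes, whose proteins bind foreign RNA, were not called. Ifit1 ran from 3.31 through 4.61 to 5.16 in wild type and from 4.36 through 5.13 to 6.01 in knockout, a change of 0.66 (limma adjusted p = 0.10). Ifit2 changed by 0.12, with an interval from -0.11 to 0.35 (limma adjusted p = 0.52). Ifit3 changed by -0.036, with an interval from -0.30 to 0.23 (limma adjusted p = 0.89), and its arrays overlapped throughout.

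Rsad2 (viperin), an enzyme that makes a chain-terminating nucleotide, was above its wild-type mean on 1 of 9 knockout arrays. It ran from 10.01 to 10.27 in wild type, against from 9.75 to 10.15 in knockout, a change of -0.15 (SE 0.061, limma adjusted p = 0.091). Its other 2 probe sets changed by -0.13 and -0.076 and were not called either. Xaf1, an antagonist of apoptosis inhibitors, changed by 0.24 (limma adjusted p = 0.24). The Mx GTPases were below the filter: Mx1 was 3.38 ± 0.54 (SD, n = 7) and 4.04 ± 0.66 (SD, n = 9), and Mx2 was at the floor on 2 of 7 wild-type and 7 of 9 knockout arrays.

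Gbp2 and Gbp3 encode guanylate-binding proteins that act against intracellular pathogens. Gbp2 ran from 5.41 through 5.92 to 6.31 in wild type and from 6.01 through 6.43 to 6.70 in knockout. 6 of 9 knockout arrays were above every wild-type array, and the rise was 0.55 (SE 0.13, 1.47-fold, limma adjusted p = 0.0058). A second, dimmer Gbp2 probe set changed by 0.70, and its groups overlapped. It was not called (limma adjusted p = 0.085 over all tested probe sets). Gbp3 had a change of 0.53 and a wider spread in knockout than in wild type. It was 6.63 ± 0.54 (SD, n = 9) in knockout against 6.10 ± 0.33 (SD, n = 7), and was not called (limma adjusted p = 0.083).

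The immunoproteasome genes encode 3 catalytic subunits that replace those of the constitutive proteasome, and all rose. Psmb10 ran from 7.30 through 7.79 to 7.92 in wild type and from 8.13 through 8.34 to 8.53 in knockout. The groups were separated, with wild type 4-2 well below the other wild-type arrays, and the rise was 0.55 (SE 0.087, 1.46-fold, limma adjusted p = 0.00012). Psmb8 ran from 6.09 through 6.53 to 7.12 in wild type and from 7.02 through 7.30 to 7.48 in knockout. 7 of 9 knockout arrays were above every wild-type array, and the rise was 0.71 (SE 0.13, 1.64-fold, limma adjusted p = 0.00054). Psmb9 was 5.66 ± 0.27 (SD, n = 7) and 6.16 ± 0.24 (SD, n = 9), a rise of 0.50 (limma adjusted p = 0.012).

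The constitutive proteasome gave 1 rise and 0 falls among 25 tested genes, with a median change of 0.095. The 3 catalytic subunits that the immunoproteasome replaces were not called. Psmb5 changed by 0.21 (limma adjusted p = 0.053), Psmb6 by 0.11 (limma adjusted p = 0.48) and Psmb7 by 0.032 (limma adjusted p = 0.66). Psma3, a structural alpha subunit, rose by 0.14 (limma adjusted p = 0.025). The difference between the immunoproteasome and the constitutive subunits was not tested.

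In peptide loading, Tapbp (tapasin), which bridges class I to TAP, ran from 9.12 through 9.33 to 9.59 in wild type and from 9.48 through 9.61 to 9.76 in knockout. 6 of 9 knockout arrays were above every wild-type array, and the rise was 0.31 (SE 0.070, 1.24-fold, limma adjusted p = 0.0031). A second Tapbp probe set rose by 0.30. The TAP transporter subunits moved by similar amounts on either side of the threshold. Tap1 was 5.96 ± 0.20 (SD, n = 7) and 6.31 ± 0.23 (SD, n = 9), a rise of 0.35 (limma adjusted p = 0.048) that was lost in 22 of 34 alternative analyses. Tap2 was 5.75 ± 0.22 (SD, n = 7) and 6.13 ± 0.28 (SD, n = 9), a change of 0.38 (limma adjusted p = 0.055).

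The class I molecules themselves rose. H2-K1, a classical heavy chain, ran from 9.74 through 10.09 to 10.30 in wild type and from 10.40 through 10.66 to 10.94 in knockout. The groups did not overlap, and the rise of 0.65 (SE 0.092, 1.57-fold, limma adjusted p = 3.6e-05) had the smallest p of the members. It was called in all 36 alternative analyses. H2-K1 has no probe set of plain type, so the alternative with plain probe sets read the same probe set and could not change its value.

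H2-D1, the other classical heavy chain, ran from 9.90 through 10.11 to 10.29 in wild type and from 10.05 through 10.48 to 10.73 in knockout. 7 of 9 knockout arrays were above every wild-type array, and the rise was 0.36 (SE 0.087, 1.28-fold, limma adjusted p = 0.0061). It was not called from a probe set of plain type (limma adjusted p = 0.060) or from the mean over its probe sets (limma adjusted p = 0.096). The probe sets used for both heavy chains are of the type that can cross-hybridise, so signal between class I paralogs is uncertain. Another bright H2-D1 probe set of this type rose by 0.43 without overlap (limma adjusted p = 0.00040 over all tested probe sets). The dimmer tested ones of H2-D1 changed by 0.64 and 0.42 and were not called. B2m, the shared light chain, ran from 11.13 through 11.39 to 11.51 in wild type and from 11.41 through 11.70 to 11.87 in knockout, a rise of 0.28 (SE 0.066, 1.21-fold, limma adjusted p = 0.0050).

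Of the 33 members, 27 had a promoter window in RefSeq (GRCm38.p6), reaching from 250 bases before to 50 bases after an annotated start. The ISRE core searched was GAAANNGAAA and the GAS core TTCNNNGAA, each on both strands. The ISRE core was present in 12 of the 27 members (44.4%) and in 3.99% of all 27025 genes with a window, and the GAS core in 6 members (22.2%) and in 9.55% of all genes. The list was made of interferon response genes, so these shares describe the list and are not a result of the arrays. Among members with a window, 4 of the 14 that rose had the ISRE core. Of the 11 tested but not called, 7 had it. The sequences below are the promoter stretches of the 4 risen members with an ISRE core, and of Ifit1 and Ifit3, which carry 2 cores each and were not called. Capitals mark the ISRE core on either strand, overlapping in Oas1a and Bst2. A GAS core of Bst2 overlaps the first of its ISRE cores.
Oas1a, chr5:120907526-120907575, minus strand: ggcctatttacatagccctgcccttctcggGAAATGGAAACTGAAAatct
Bst2, chr8:71537557-71537632, minus strand: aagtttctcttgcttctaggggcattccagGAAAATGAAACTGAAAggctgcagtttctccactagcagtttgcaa
Gbp2, chr3:142620574-142620643, plus strand: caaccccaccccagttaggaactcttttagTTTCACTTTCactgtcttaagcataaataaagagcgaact
B2m, chr2:122147518-122147587, plus strand: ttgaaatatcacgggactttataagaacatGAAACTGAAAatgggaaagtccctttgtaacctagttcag
Ifit1, chr19:34640755-34640843, plus strand: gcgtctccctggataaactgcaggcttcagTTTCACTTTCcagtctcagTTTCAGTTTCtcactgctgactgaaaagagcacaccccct
Ifit3, chr19:34583343-34583446, plus strand: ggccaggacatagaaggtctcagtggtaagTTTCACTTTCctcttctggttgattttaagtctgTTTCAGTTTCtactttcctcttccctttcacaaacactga

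Psmb9, Tap1, Psmb8 and Tap2 are consecutive protein-coding genes on chromosome 17, between H2-K1 and H2-D1 in gene order, and Tapbp lies on the far side of H2-K1. Psmb9 and Tap1 point away from each other, with 225 bases between their starts. The stretch between their starts is shown because it serves both risen genes, and neither core was found in either window.
Psmb9 to Tap1, chr17:34187331-34187555, plus strand: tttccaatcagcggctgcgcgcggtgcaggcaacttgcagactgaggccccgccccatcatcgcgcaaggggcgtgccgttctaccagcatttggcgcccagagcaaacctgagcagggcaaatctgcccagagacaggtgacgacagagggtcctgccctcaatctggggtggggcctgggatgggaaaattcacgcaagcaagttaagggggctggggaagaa

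Of the 31 members placed in the RefSeq gene order, Irf7 alone lies on chromosome 7, which carries Aqp11, with 709 protein-coding genes between them. Of the genes of other lists named below, Ifitm1, Ifitm3, Itgax, Trim21, Fcgrt and Nphs1 also lie on chromosome 7. Genes outside the lists were not looked up. Stretches of 129 genome that remain near the targeted allele after back-crossing cannot be told apart from the deletion on that chromosome.

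The 6 other lists of the pathway held 107 tested genes, of which 34 rose and 2 fell. Among the interferons, their receptors and kinases, 5 of 13 tested genes rose and 0 fell. The interferons were near the floor. Ifnb1 was 3.16 ± 0.42 (SD, n = 7) and 3.23 ± 0.51 (SD, n = 9), and Ifng was at the floor on 6 of 7 wild-type and 7 of 9 knockout arrays, so neither was tested.

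Both chains of the interferon gamma receptor rose, Ifngr1 by 0.28 (limma adjusted p = 0.028) and Ifngr2 by 0.35 (limma adjusted p = 0.0052). Of the type I receptor, Ifnar2 rose by 0.22 (limma adjusted p = 0.042) and Ifnar1 changed by 0.095 (limma adjusted p = 0.43). Jak2, a kinase of the gamma receptor, rose by 0.31 (limma adjusted p = 0.0034). Socs3, a feedback inhibitor of cytokine receptors that act through STAT3, rose from 5.81 ± 0.29 (SD, n = 7) to 8.35 ± 0.52 (SD, n = 9), by 2.54 (limma adjusted p = 8.5e-09).

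Among further interferon-stimulated genes, 17 of 38 rose and 1 fell, with a median change of 0.30. The smallest p-values belonged to Ifitm1 (0.84) and Ifitm3 (0.71), membrane proteins that block viral entry, the chemokine Ccl5 (2.21), the GTPase Iigp1 (0.82) and Epsti1 (1.06). These 5, picked by smallest p, are among the 7 of 38 with every knockout array above every wild-type array. That pattern held in 2.91% of all tested genes. Ccl5 was at the floor on 4 of 7 wild-type arrays, where its highest value was 4.12, and ran from 4.93 to 5.94 in knockout. It passed the filter on low signal through its knockout arrays, so its place in the test depended on the group where it was high. The fall was in Trim21 (-0.59, limma adjusted p = 0.0077), an antibody receptor of the cytosol whose gene lies 84 protein-coding genes from Aqp11.

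Of the nucleic acid sensing genes, 5 of 12 rose and 0 fell. They were Tmem173 (STING, 0.79), Myd88 (0.43), Samhd1 (0.37), Ticam1 (0.47) and Eif2ak2 (0.29). Of the other IRF factors and transactivators, Irf5 rose by 0.73 (limma adjusted p = 0.020) and the remaining 5 tested were not called. Nlrc5, the transactivator of class I genes, changed by 0.47, with an adjusted p of 0.29 in limma.

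Of the other class I and loading genes, 5 of 13 rose and 1 fell, with a median change of 0.093. The chaperones Pdia3 (0.18) and Calr (0.22), the editor Tapbpl (0.40) and the non-classical H2-M3 (0.56) rose. Fcgrt, the heavy chain of the neonatal Fc receptor, which also pairs with B2m, fell by 0.43 (limma adjusted p = 6.5e-05), and lies on chromosome 7 with Aqp11. H2-Q2, a class I gene of the Q region, was below the filter and not tested in the fit. It was 5.51 ± 0.68 (SD, n = 7) in wild type against 3.43 ± 0.48 (SD, n = 9) in knockout, and every knockout array was below every wild-type array. It is named here after its values were seen.

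**Figure D3:**
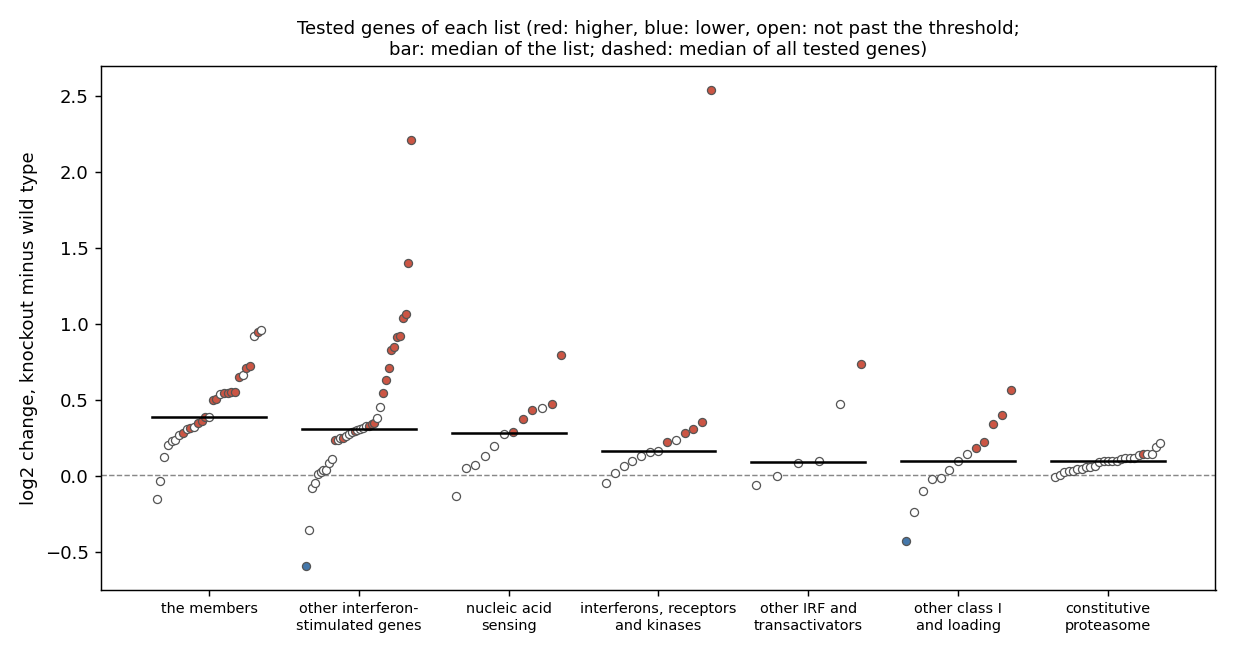
Log2 change, knockout minus wild type (vertical axis), of each tested gene in the member set and the 6 other lists, sorted within each list, with red for genes that rose, blue for those that fell and open circles for those not called. Black bars are list medians, from 0.38 in the members to 0.088 in the other IRF factors, and the dashed line is the median of all tested genes (0.0031).

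Markers of macrophages, which express many of these genes, moved with genotype. Of 19 tested macrophage markers 18 rose and 0 fell, with a median change of 1.38. Their list's summed signal ran from 2528 to 4906 in wild type, against from 6364 to 10490.2 in knockout. C1qa rose by 1.73, Fcgr3 by 1.67 and Mrc1 by 1.02. In whole kidney, more cells of a type and more RNA per cell cannot be told apart.

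None of the 7 tested genes among the T cell (2), NK cell (1), B cell (3) and plasmacytoid dendritic cell (1) markers was called. Most markers of these lists were below the filter. Of the dendritic cell markers, Itgax (1.96) and Clec10a (0.94) rose among 3 tested of 7 with a value. Itgax was at the floor on 3 of 7 wild-type arrays. Of the neutrophil markers, S100a8 (1.28) and S100a9 (0.75) rose among 4 tested of 7 with a value. Of 10 endothelial markers, 5 fell and 0 rose, including Emcn (-0.37), Sox17 (-0.55) and Pecam1 (-0.21). Of 8 tubule markers, Slc34a1 (-0.64) and Cubn (-0.72) were among 5 that fell and Aqp2 (0.90) was the 1 that rose, and of 4 podocyte markers Nphs1 (-0.53) fell. The part of these cell types in the members' changes was not tested.

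Array by array, the mean of the 29 tested members ran from 6.83 to 7.23 in wild type, against from 7.31 to 7.67 in knockout. The mean of the macrophage markers ran from 6.39 to 7.28 and from 7.85 to 8.52. Wild type 2-1 and 2-2 had the highest wild-type macrophage means (7.28 and 7.25) and member means of 7.13 and 6.91. Wild type 5-1 had a macrophage mean of 6.54 and a member mean of 7.23. Among knockout arrays, 3-4 was lowest on both means (macrophage 7.85, member 7.31) and 1-2 highest on both (8.52 and 7.67). Without wild type 2-1 and 2-2, 14 members rose, and 8.7% of all tested genes rose.

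**Figure D4:**
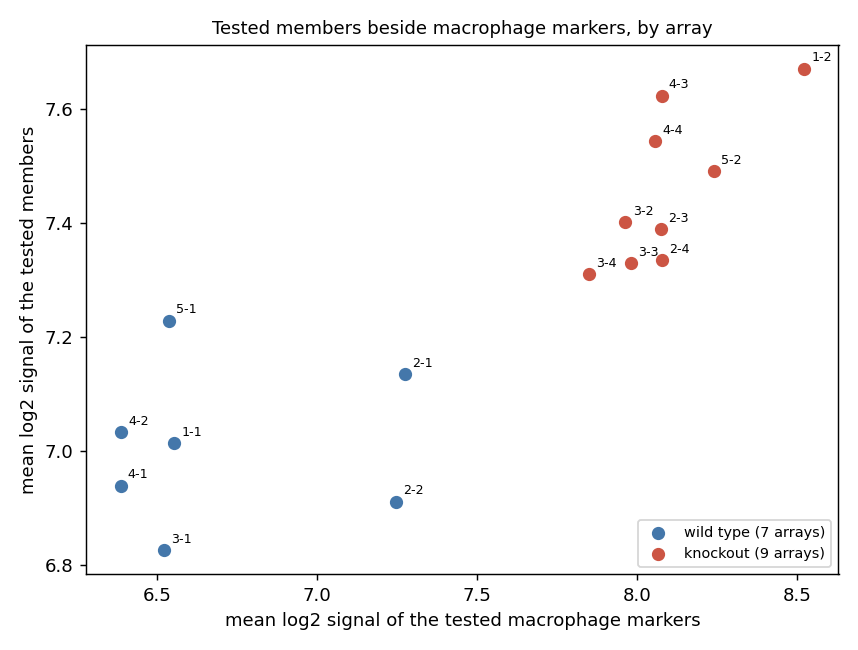
Mean log2 signal of the 29 tested members (vertical axis) against the mean log2 signal of the tested macrophage markers (horizontal axis), 1 point per array labelled with its sample number, 7 wild type in blue and 9 knockout in red. The genotypes are apart on both axes, wild type 2-1 and 2-2 lie between the other wild-type arrays and the knockout arrays on the horizontal axis, and knockout 1-2 is highest on both.

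Members did not all vary together among animals of 1 genotype. With genotype means removed, the median Pearson r over the 45 pairs of tested antiviral effectors was 0.32 across the 16 arrays. It was 0.13 over the 36 pairs of immunoproteasome, loading and class I genes, 0.059 over the 90 pairs between these groups and 0.012 over all pairs of tested genes. Knockout 1-2 was the highest knockout array for 11 of the 29 members, and wild type 5-1 the highest wild-type array for 13. Measured the same way, the genes outside the lists most like the mean of the risen members were Brf2 (r = 0.81), Clec7a (r = 0.81), Haus5 (r = 0.78), Mdm2 (r = 0.74) and Foxk1 (r = 0.74). They were picked as the largest r among all tested genes outside the lists, and the r values were not tested. Of the 5 genes, Clec7a, a receptor of myeloid cells, rose by 2.37 (limma adjusted p = 1.4e-06), and the other 4 were not called.

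The response was in the same direction in both sexes for most members, with 27 of 29 higher in the knockout in males and in females. Rsad2 was lower in both sexes, and Ifit3 was lower in males only by value (-0.057 in males and 0.018 in females). For the interaction of sex and genotype, limma called 0 members and 0.00% of all tested genes. At an unadjusted p under 0.05 it gave 1 member and 1353 genes. That member was B2m, which changed by 0.15 in males and 0.42 in females (limma adjusted p of the interaction 0.46).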

How the data were processed

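The authors deposited signal intensity per probe set on a linear scale, made with GCOS 1.3 per the submitters' processing notes, and scaling between arrays was not given in the sources used here. Trimmed means differed 2.12-fold between the 16 arrays, so intensities were quantile normalised over 45101 probe sets. Values under the 20th percentile (6.89) were raised to it and log2 was taken, which understates changes of dim genes. Quantile normalisation would hide a change in total mRNA.

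Of the probe sets, 34945 name 1 gene, 932 name several and 9211 are not listed in the platform annotation, which can be old. Each gene was read from its brightest probe set naming it alone, and kept for testing where at least 7 arrays had it over their 40th percentile. Knockout and wild type were compared with limma 3.58.1 in R 4.3.3 (lmFit, eBayes with a variance trend, genotype as sole term, all 16 arrays), with p-values adjusted by Benjamini-Hochberg over 12508 genes. The fit was tested on simulated data. Intervals are 95%. Single measures used exact permutation over 11440 assignments of genotype.

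Members and lists were chosen with earlier results of these data known. Named are all members, up to 5 genes of each pathway list and up to 3 of each cell list with the smallest p, 11 further pathway genes whatever their p, and the 5 most alike genes. Trim21 lies outside this rule and was named after its value was seen. The first sample number, which might mark a litter, is not explained in the labels. Same-number pairs across genotypes had a median correlation of deviations of 0.075 (from -0.14 to 0.32, 13 pairs) and other pairs of -0.012. The number was not taken as pairing, and these correlations do not settle what it marks. Alternatives were other scaling, floors, filters, probe set rules, model terms and subsets of arrays. Figures were drawn with matplotlib 3.10.9.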

Additional observations from a re-analysis of the deposited data

Results flagged for a closer look

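In 7 of 58 groups of arrays (29 members in each of 2 genotypes), 1 array stood apart from the rest in log2 signal. A chance rate of about 1 in 20 groups would hold only for independent, normally distributed groups. Here the members were read on the same arrays and were correlated (median Pearson r 0.18 over all member pairs, genotype means removed). No share over all tested genes is given, so 7 of 58 cannot be read as an excess over chance. Irf7 was 2.92 on wild type 3-1, with the next at 5.01, and Ifit1 was 3.31 on wild type 1-1, with the next at 4.39. Without those arrays the log2 change of Irf7 was 0.56 and the log2 change of Ifit1 was 0.45. Usp18 was 4.45 on knockout 3-4, with the next at 5.22, and Oas2 was 3.16 on knockout 2-4, with the next at 4.38. Irf9 was 8.13 on knockout 1-2, with the next at 7.74. Psmb10 was 7.30 on wild type 4-2, with the next at 7.74, and B2m was 11.13 on wild type 5-1, with the next at 11.37. Without the array concerned, Irf9, Psmb10 and B2m were still called by limma, Irf7, Ifit1 and Usp18 were still not called, and Oas2 became called.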

How the results depend on the processing

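Against 15 members that rose, the deposited signals without scaling gave 3, males alone 9, females alone 8 and the dimmer arrays alone 6. Against 2214 genes called in all, the deposited signals gave 441, males 1417, females 681, the brighter arrays 1333 and the dimmer arrays 1175. Against 34 genes of the other lists that rose, the deposited signals gave 11, males 22, females 12 and the brighter and dimmer arrays 20 each. Against 2 that fell there, the deposited signals gave 0, and the mean over probe sets, females, the brighter arrays and the dimmer arrays 1 each. The subsets hold fewer arrays. Leaving out each array in turn gave 14 to 18 members that rose and 0 to 1 that fell, the 1 being Rsad2 without knockout 3-2. In those fits 7.95% to 9.51% of all tested genes rose. With the first sample number as a replicate block 18 members rose and 2654 genes were called (19 and 2602 with sex as a further term). Array weights gave 20 members that rose and 2493 genes called. No called member changed direction in any alternative. H2-K1 alone kept its call in all 36, although it has no plain probe set and the plain probe set rule could not change its value. In every fit without 1 array, 14 of the 15 kept theirs, Tap1 being the exception. Of the members not called, 8 passed in at least 1 alternative and 6 in none. Each probe set tested on its own gave 5 rises and 0 falls among the 14 tested other probe sets of members. Among all 23193 tested probe sets, 1571 rose and 1348 fell. Signal near the floor limits Oas2, Mx1, Mx2, Ccl5, Itgax and the interferons.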
